A study of Fundulus heteroclitus with 8 samples.

Results

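The enzymes of glycolysis and the citric acid cycle were followed in the testis of the mummichog (Fundulus heteroclitus), a small estuarine killifish, after exposure to an androgen. They were found by name: a probe was included when the product name in the array design contained 1 of 18 terms such as aldolase, enolase, pyruvate kinase, citrate synthase or malate dehydrogenase. This gave 48 of the 3443 product names on the array, carried by 92 of its 7157 probes on 84 target sequences. The names stand for 43 enzymes or subunits. A few enzymes of neighbouring pathways share a term and came in with them, such as glucose-6-phosphatase, transaldolase and sphingosine-1-phosphate lyase, and they are described as a group of their own.

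The DHT50 group was 4 adult males exposed through the water to 5α-dihydrotestosterone (DHT) at 50 µg/L over 21 days. DHT is an androgen that is not a substrate of aromatase and so gives no estrogen by that route. The control group was 4 adult males at a dose of 0 µg/L, also at 21 days, and each sample was an individual with 1 array. A dose of 5 µg/L is named in the labels too and was not analysed here. Total RNA of the whole testis was labelled with Cy3 and hybridised to 1-colour arrays of a mummichog design, all 8 on 1 slide.

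Glycolysis splits glucose in the cytoplasm into pyruvate, with a small yield of ATP and NADH. Pyruvate is then either reduced to lactate by lactate dehydrogenase or carried into mitochondria, where the pyruvate dehydrogenase complex turns it into acetyl-CoA for the citric acid cycle. In the mammalian testis, Sertoli cells use much glucose and pass lactate on to germ cells, and sperm carry out glycolysis along the tail. Several steps are run by isozymes that differ between tissues, such as aldolase A of muscle, aldolase B of liver and kidney and aldolase C of brain.

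Levels are given as log2 of the processed signal minus the 75th percentile of the array, so that 0 is as bright as that percentile. They cannot be compared between probes, since probes differ in how well they bind. Only probes that stood well clear of background on 4 or more of the 8 arrays were tested. That held for 83 of the 92 probes, 71 of which were well above background on all 8. Of the 9 probes not tested, 3 were above background on no array: a muscle-type aldolase, 1 probe for the E1 beta subunit of pyruvate dehydrogenase and 1 for the E2 subunit of that complex. Hexokinase D (glucokinase), the only hexokinase in the set, was well above background on 3 arrays and could not be tested.

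The arrays differed in brightness, with a 75th percentile of 7.97 to 11.2 on the log2 scale, lowest in DHT50 2 and highest in control 1. DHT50 2, 3 and 4 (7.97, 9.13 and 9.50) were each dimmer than every control (9.99 to 11.2), while DHT50 1 had 10.95. Brightness and exposure thus cannot be fully told apart. A fit with brightness as a covariate can also take up part of a difference due to exposure. Between 4742 and 6227 probes were well above background. The germ cell marker DEAD-box protein 4 (vasa) and the follicle stimulating hormone receptor were well above background on 8 of 8 arrays. The slide's first row held DHT50 1, 2 and 3 with control 1, and its second row held DHT50 4 with controls 2, 3 and 4. Control 1 stood apart in a list of 45 probes for liver and plasma proteins, such as transferrin, fibrinogen and apolipoproteins, of which 34 were tested. Their summed level was 7.29 to 61.5 on DHT50 arrays and 9.82 to 634.7 on control arrays, where 1 is the 75th percentile of an array. Control 1 had the 634.7, and the highest of the other controls had 43.7. Of the 34 probes, 28 were lower in DHT50 and 26 were highest in control 1, and 2 of the 45 were well above background nowhere. The vitellogenin probes of the list were an exception. On those tested, control 1 minus the mean of the other controls was -2.99 to 0.15. On the apolipoprotein A-I probe AN_v_4431 it was -0.44. Changes that rested on control 1 are therefore given with and without it.

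No enzyme probe passed the test. At an adjusted p under 0.05 (limma, Benjamini-Hochberg over all 5989 tested probes), 0 of 83 probes were called, against 0% of all tested probes. The lowest adjusted p among the enzymes was 0.685, and over all probes it was 0.216. At an unadjusted p under 0.05, 7 of 83 probes were past the threshold, 4 lower and 3 higher in DHT50. This is 8.43% of the enzymes' probes, beside 4.71% of all tested probes, of which 1.42% were lower and 3.29% higher. The DHT50 and control arrays did not overlap for 5 of the 83 probes (3 with DHT50 below and 2 above), beside 2.22% of all tested probes (0.952% below and 1.27% above). The lower probes in both counts all carried 1 product name, glyceraldehyde-3-phosphate dehydrogenase. With only the brightest probe of each of 46 tested product names, 4 were at an unadjusted p under 0.05, 1 lower and 3 higher. The groups then did not overlap for 2 names. For the enzymes' probes the median standard error was 0.44 on the log2 scale. Since testis RNA was measured in bulk, fewer cells of a type and less RNA per cell cannot be told apart in any of these values.

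Most changes were small. The median log2 change was -0.08 over the 83 probes, beside 0.06 over all tested probes, and 46 of 83 probes (55.4%) were lower in DHT50, beside 46.4% of all. With 1 probe for each of the 46 tested product names, the brightest, the median was -0.10, with 29 names lower and 17 higher. Changes ran from -1.56 to 1.07 in upper glycolysis, from -1.93 to 1.61 in lower glycolysis and from -0.76 to 0.36 in the citric acid cycle. They ran from -0.40 to 0.80 for lactate and pyruvate dehydrogenase, and from -1.81 to 1.06 for enzymes of other pathways. The direction of many changes depended on the arrays and the model used: 67 of the 83 probes kept theirs without control 1, and 49 with array brightness as a covariate. Of the 37 probes that changed by more than their SE, 30 kept their direction with brightness. All 37 kept it without control 1, but leaving out 1 array can hardly turn a change larger than its SE. That count therefore says little about the part of control 1.

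**Figure D1:**
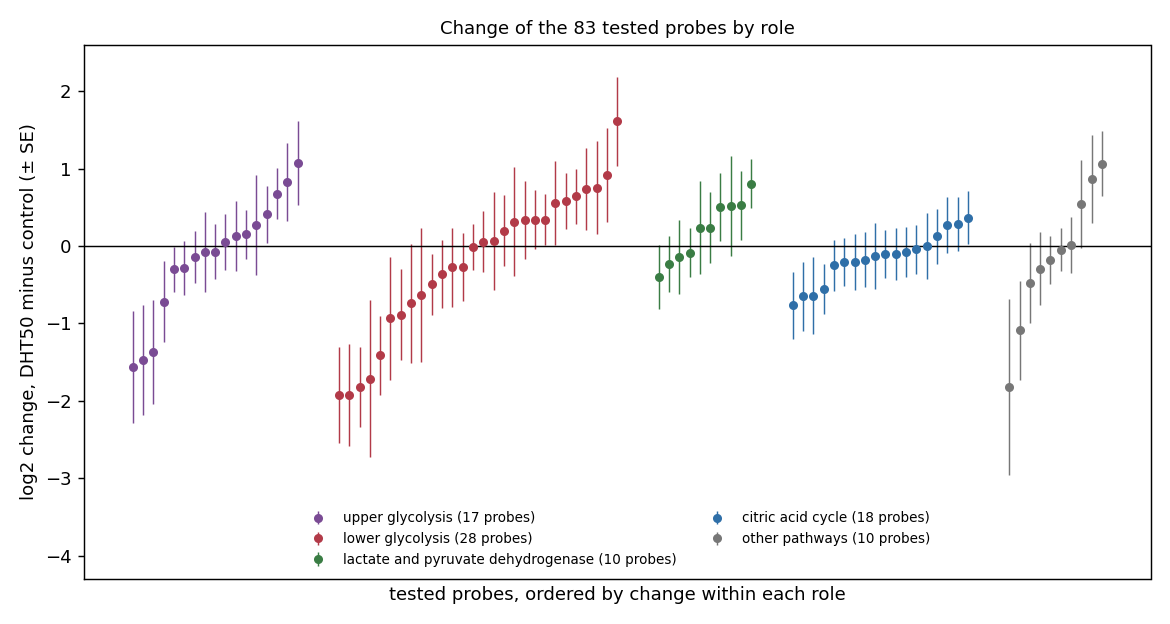
Log2 change, DHT50 minus control, with its standard error for each of the 83 tested probes, grouped by role and ordered by size within each group. Glycolysis spans -1.93 to 1.61, while all 18 probes of the citric acid cycle group lie between -0.76 and 0.36.

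Upper glycolysis takes glucose to the 2 triose phosphates. It had 17 tested probes, 9 lower and 8 higher in DHT50, with a median change of -0.07, and 0 of them were at an unadjusted p under 0.05. The widest differences belonged to aldolase B, the aldolase of liver and kidney that also cleaves fructose 1-phosphate. Its probe AN_v_10543 had levels of 0.45, -1.39, 0.75 and -0.83 on DHT50 arrays 1 to 4, against 3.33, 0.73, 0.91 and 0.25 on control arrays 1 to 4. Its probe An_u_10536 stood at 0.77, -0.95, 1.1 and -0.49 in DHT50, against 3.57, 1.06, 1.20 and 0.50 in controls. The probe AF439860 stood at -0.41, -1.57, -0.24 and -1.70 in DHT50, against 2.43, -0.28, -0.07 and -0.52 in controls. All 3 probes were highest in control 1, and DHT50 2 and 4 lay below every control, while DHT50 1 and 3 lay among controls 2 to 4.

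The log2 changes of aldolase B were -1.56 ± 0.73 (SE) for AN_v_10543, -1.47 ± 0.71 for An_u_10536 and -1.37 ± 0.67 for AF439860. These are folds of 0.339, 0.360 and 0.386, and none passed the test (adjusted p = 0.685 each). Without control 1 the changes were -0.89, -0.81 and -0.69. Aldolase A, the muscle form, had 5 tested probes with changes of -0.72 to 0.41, and 2 probes on the same target (An_u_10475) gave its lowest and highest value. Without control 1 those 2 probes had -0.19 and 0.28. Aldolase C, the brain form, had 2 probes at 0.15 and 0.82. Its probe An_u_10545 stood at -1.74, 0.72, -0.29 and -0.46 in DHT50, against -1.77, -1.29, -0.83 and -1.17 in controls. DHT50 2, 3 and 4 thus lay above all controls and DHT50 1 among them (log2 change 0.82 ± 0.50, adjusted p = 0.685). With array brightness as a covariate the change of this probe was 0.097.

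Glucose-6-phosphate isomerase, which turns glucose 6-phosphate into fructose 6-phosphate, had 4 tested probes with changes of -0.14 to 1.07. Its probe AN_v_10718 stood at -2.71, -2.10, -2.68 and -2.94 in DHT50, against -2.84, -3.54, -3.46 and -3.30 in controls, so 3 DHT50 arrays were above all controls (0.68 ± 0.32). AN_v_10719 stood at -0.47, 0.40, 0.62 and -1.88 in DHT50, against -0.82, -1.64, -1.52 and -1.62 in controls. There DHT50 1 to 3 were above all controls and DHT50 4 was below them (1.07 ± 0.54). An_u_10717 had 1.23, 0.79, 0.52 and 0.11 in DHT50, against 0.99, 0.55, 0.73 and 0.96 in controls (-0.14 ± 0.33). There DHT50 1 was above all controls, and DHT50 3 and 4 were below them. The probes for this name thus ran both ways, and none passed the test (adjusted p of 0.685 to 0.953).

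The 2 probes for triosephosphate isomerase, which interconverts the triose phosphates, were nearly alike in change, at -0.30 and -0.29. AN_v_19073 stood at 0.59, 0.63, 0.18 and 0.40 in DHT50, against 1.0, 0.65, 0.58 and 0.77 in controls, with 2 DHT50 arrays below all controls. Muscle-type 6-phosphofructokinase, which catalyses the committed step, had a change of -0.07 ± 0.35.

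Lower glycolysis takes triose phosphates to pyruvate and yields the pathway's ATP. It had 28 tested probes, 14 lower and 14 higher in DHT50, with a median change of 0.02, and held 5 of the 7 probes at an unadjusted p under 0.05. Of these, 4 were probes for glyceraldehyde-3-phosphate dehydrogenase (GAPDH), which oxidises glyceraldehyde 3-phosphate and makes NADH, and is often used as a reference gene. All 4 were lower in DHT50, by folds of 0.263 to 0.376.

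The GAPDH probe AN_v_10849 stood at -3.14, -2.36, -2.43 and -1.77 in DHT50, against 0.81, -0.74, -1.47 and -1.03 in controls. AN_v_10867 stood at -2.80, -2.43, -2.75 and -2.05 in DHT50, against 1.44, -1.09, -1.65 and -1.01 in controls. An_u_10831 stood at -2.77, -2.55, -2.74 and -1.89 in DHT50, against 1.61, -0.99, -1.64 and -1.26 in controls. On each of these 3 probes every DHT50 array lay below every control, and control 1 was the highest array. One further probe, AN_v_10863, had 0.54, -0.07, 0.27 and 0.88 in DHT50, against 3.27, 1.73, 0.88 and 1.39 in controls, where the highest DHT50 array met the lowest control.

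The log2 change was -1.82 ± 0.52 for AN_v_10849, -1.93 ± 0.62 for AN_v_10867, -1.92 ± 0.66 for An_u_10831 and -1.41 ± 0.51 for AN_v_10863. The adjusted p was 0.685 for each (limma). Without control 1 the changes were -1.35, -1.26, -1.19 and -0.93. Within the first slide row, where control 1 is the only control, the changes were -3.45, -4.10, -4.3 and -3.03. Within the second row, where DHT50 4 is the only DHT50 array, they were -0.69, -0.80, -0.60 and -0.45. On the first 3 probes the groups did not overlap, so any subset of the arrays gives a lower DHT50 mean. On AN_v_10863 they barely overlapped. The rows thus bear on the size of the change, which differed, and not on its direction. Control 1 was also the array with the liver and plasma markers at 634.7, and the part of those markers in the GAPDH result was not tested.

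The other 4 GAPDH probes did not share this pattern. AN_v_10847 stood at 1.26, -0.38, 0.33 and -0.50 in DHT50, against 0.73, 0.53, -0.14 and 0.68 in controls (-0.27 ± 0.44). AN_v_10865 stood at -0.22, -0.09, -0.90 and -0.82 in DHT50, against 0.26, -0.98, -1.07 and -0.45 in controls (0.06 ± 0.39). On both probes the groups overlapped.

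AN_v_10866 stood at -2.75, -2.34, -3.35 and -0.14 in DHT50, against -0.44, -2.64, -2.16 and -0.37 in controls (-0.74 ± 0.77). DHT50 4 was the highest of all 8 arrays there. AN_v_10868 stood at -3.02, -0.40, -1.74 and -1.54 in DHT50, against -1.77, -2.02, -2.01 and -2.24 in controls (0.33 ± 0.50). Here 3 DHT50 arrays lay above all controls and DHT50 1 below them. The array design does not say whether the 8 probes stand for different GAPDH genes or for variants of one.

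**Figure D2:**
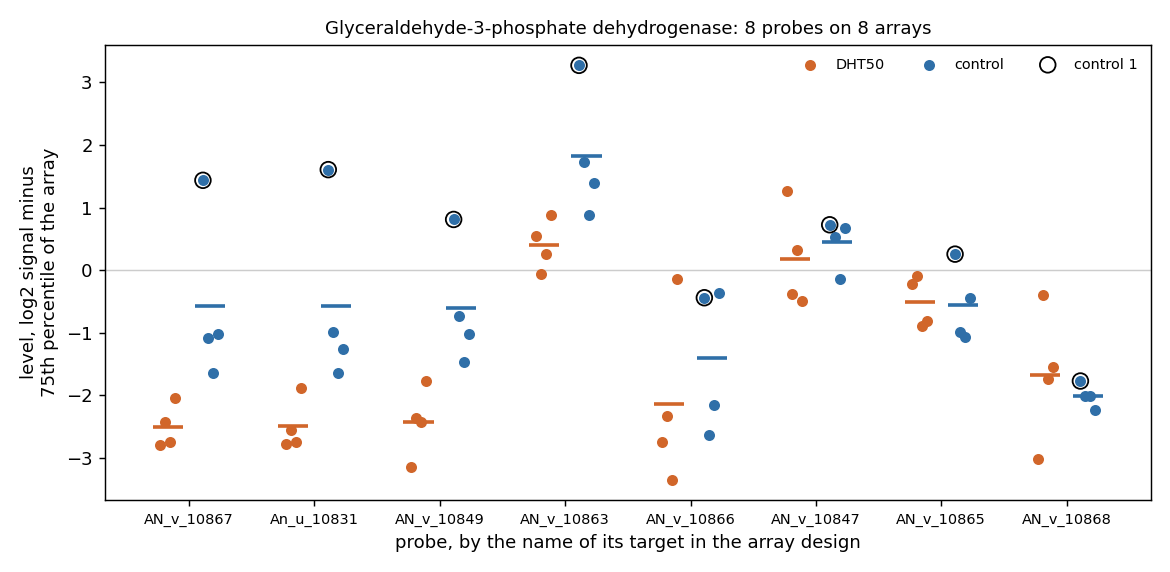
Level of the 8 GAPDH probes (log2 signal minus the 75th percentile of the array) on the 4 DHT50 arrays and the 4 control arrays, with bars at the group means and a ring on control 1. On AN_v_10867, An_u_10831 and AN_v_10849 all DHT50 arrays lie below all controls and control 1 is highest, while the groups overlap on the other 5 probes.

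Phosphoglycerate kinase, which makes the first ATP of glycolysis, had 2 probes with changes of opposite sign. An_u_15429 stood at 2.28, 0.95, 0.90 and 1.04 in DHT50, against 1.96, 1.54, 1.45 and 2.20 in controls (-0.50 ± 0.40). DHT50 1 was the highest of all arrays and the other 3 DHT50 arrays were below every control. The probe named phosphoglycerate kinase 1 had a change of 0.64 ± 0.35.

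Phosphoglycerate mutase, which moves the phosphate group of 3-phosphoglycerate, differed between its forms. The form named phosphoglycerate mutase 2, which in mammals is made in muscle and in late germ cells, gave the highest positive change among the enzymes. Its probe An_u_15444 stood at 2.22, 2.52, 3.68 and 3.40 in DHT50, against -0.22, 2.20, 1.5 and 1.89 in controls. Every DHT50 array lay above every control, though DHT50 1 exceeded control 2 by only 0.01, and control 1 was the lowest array.

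The change was 1.61 ± 0.57, or 3.06-fold, and did not pass the test (adjusted p = 0.685). Without control 1 it was 1.09 ± 0.45, and within the slide rows it was 3.03 and 1.54. The other probe for the name had a change of 0.34 ± 0.39, and the 2 probes for phosphoglycerate mutase 1 had -0.28 and -0.36. Of 41 skeletal muscle marker probes, 28 were tested, 21 higher and 7 lower in DHT50, and 0 of them were at an unadjusted p under 0.05. Of all tested probes, 46.4% were lower. Their summed level for muscle was 13.7 to 32.1 on DHT50 arrays and 16.1 to 28.9 on control arrays, and 6 of the 41 were well above background nowhere. The median deviation of the muscle markers was -0.94 in control 1 and -0.80 in DHT50 1, the brightest arrays, and 0.80 in DHT50 2, the dimmest. Red blood cell markers had -0.84, -0.88 and 0.91 there, so this order was not particular to muscle. The part of muscle RNA in the mutase result was not tested.

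Enolase, which makes phosphoenolpyruvate, was close to level. Its probe AN_v_9799 stood at 4.14, 4.78, 4.45 and 4.54 in DHT50, against 4.61, 4.49, 4.64 and 4.20 in controls, with a change of -0.01 ± 0.30. The probe named alpha enolase, the widespread form, had 0.20 ± 0.46. That for beta enolase, the muscle form, had -0.88 ± 0.59, which was -0.31 without control 1 and 0.0037 in the second slide row.

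Pyruvate kinase, which makes the last ATP of the pathway, had 11 probes in 4 names. The R/L form, made in liver and red blood cells, had 1 probe (An_u_17234) at -4.99, -3.13, -4.06 and -3.70 in DHT50, against 1.16, -2.97, -4.24 and -2.95 in controls. Control 1 stood 4.55 above the mean of the other controls, and the remaining 7 arrays overlapped. The change was -1.72 ± 1.01 with all arrays and -0.58 without control 1.

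The muscle form of pyruvate kinase had 7 probes with changes of -0.93 to 0.92. Without control 1 they ran from -0.16 to 0.62, and with brightness as a covariate from -0.92 to 0.58. Its probe AN_v_17236 with the largest change stood at -4.24, -1.47, -1.83 and -2.64 in DHT50, against -4.34, -3.23, -3.21 and -3.06 in controls (0.92 ± 0.60, adjusted p = 0.685). DHT50 2, 3 and 4 lay above all controls. A second probe on the same target gave 0.73. With brightness as a covariate these 2 probes had 0.003 and -0.017. The 2 probes for isozymes M1/M2 had 0.75 and 0.58, which became -0.098 and 0.52 with brightness. The 1 for M2 had -0.63 ± 0.87.

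Lactate dehydrogenase B, which in mammals is the heart form and favours turning lactate into pyruvate, had 2 probes. An_u_12700 stood at 4.01, 2.93, 4.50 and 3.31 in DHT50, against 4.64, 4.10, 3.87 and 3.73 in controls (-0.40 ± 0.42). DHT50 2 and 4 lay below all controls, and control 1 was highest. The other probe had -0.14 ± 0.48, which was 0.21 without control 1 and 0.35 with brightness as a covariate.

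The pyruvate dehydrogenase complex commits pyruvate to the mitochondrion. Its E1 component removes carbon dioxide, its E2 component passes the acetyl group to coenzyme A, and a kinase and a phosphatase switch it off and on. The group of lactate and pyruvate dehydrogenase had 10 tested probes, 4 lower and 6 higher in DHT50, with a median change of 0.24. The E1 beta probe An_u_17223 stood at 4.67, 5.37, 4.90 and 5.23 in DHT50, against 3.90, 4.4, 4.04 and 4.60 in controls. All DHT50 arrays lay above all controls, by a gap of 0.07.

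The change of An_u_17223 was 0.80 ± 0.32, or 1.75-fold, and did not pass the test (adjusted p = 0.685). It was 0.69 without control 1, and 1.07 and 0.88 within the slide rows. A second E1 beta probe, on another target, had 0.53 ± 0.45 with overlapping groups. The E1 alpha probe An_u_17217 stood at -3.56, -0.35, -3.12 and -2.91 in DHT50, against -3.61, -2.78, -2.81 and -2.80 in controls. Its change of 0.52 ± 0.65 came with DHT50 2 far above the other 7 arrays, and 3 DHT50 arrays lay below controls 2 to 4.

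The E2 probe An_u_9161 stood at -1.02, -1.81, -0.64 and -0.66 in DHT50, against -0.85, -0.62, -1.15 and -0.59 in controls (-0.23 ± 0.36), and the groups overlapped. Another E2 probe had 0.24 ± 0.46. Pyruvate dehydrogenase kinase 1 had 0.24 ± 0.60 and was well above background on 4 of the 8 arrays. The regulatory subunit of the phosphatase had -0.08 and 0.51. The subunits of the complex thus gave changes of both signs, and only on the E1 beta probe An_u_17223 did the groups not overlap.

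The citric acid cycle group had 18 tested probes, 13 lower and 5 higher in DHT50, with a median change of -0.12. Counted in it are cytoplasmic malate dehydrogenase and the NADP-linked isocitrate dehydrogenases, which are forms beside those of the cycle itself. None was at an unadjusted p under 0.05 (0 of 18), none had groups that did not overlap, and no change was as large as 1 on the log2 scale. The lean of 13 to 5 was not kept without control 1. Malate dehydrogenase AN_v_12872 then had 0.15 and An_u_12870 0.013, and succinyl-CoA ligase AN_v_18529 had 0.030. Isocitrate dehydrogenase An_u_12477 had 0.055 and An_u_12452 0.049. In the other direction, only isocitrate dehydrogenase AN_v_12476 turned, from 0.004 to -0.17. Citrate synthase, which brings acetyl-CoA into the cycle, stood at 0.54, -0.78, 0.78 and 1.1 in DHT50, against 1.20, 1.45, 0.67 and 0.93 in controls. The change was -0.65 ± 0.44, and DHT50 2 was by far the lowest array.

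The NAD-linked isocitrate dehydrogenase is a main control point of the cycle. Its beta subunit (An_u_12463) stood at 1.06, -0.60, 0.05 and 0.66 in DHT50, against 0.83, 1.08, 0.59 and 1.71 in controls. Its change of -0.76 ± 0.43 was the largest of the cycle (adjusted p = 0.685), with DHT50 2 and 3 below all controls. Its alpha subunit had -0.10 ± 0.34. The NADP-linked forms, which make NADPH, had 0.27 for the cytoplasmic enzyme and -0.20 to 0.29 over 3 probes for the mitochondrial one.

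Succinyl-CoA ligase, which makes GTP, had 3 alpha chain probes with changes of -0.25 to 0.12. The E2 component of the 2-oxoglutarate dehydrogenase complex had -0.08 and 0.36, and fumarate hydratase had -0.13. The 5 malate dehydrogenase probes had changes of -0.64 to -0.04. Without control 1 they ran from -0.57 to 0.15, and with brightness as a covariate from -0.42 to 0.13. The mitochondrial form closes the cycle, and its probe An_u_12871 stood at 1.31, 0.61, 1.73 and 1.33 in DHT50, against 1.75, 1.93, 1.64 and 1.86 in controls (-0.55 ± 0.33). There 3 DHT50 arrays lay below all controls.

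Another target of the same name, An_u_12870, stood at 2.29, 1.82, 2.36 and 2.36 in DHT50, against 2.66, 2.41, 1.99 and 2.18 in controls (-0.10 ± 0.31). The cytoplasmic form moves reducing equivalents in the malate shuttle, and An_u_12864 stood at 4.64, 4.03, 4.82 and 4.66 in DHT50, against 4.84, 4.88, 4.4 and 4.87 in controls (-0.21 ± 0.31). Both probes had overlapping groups with DHT50 2 lowest. DHT50 2 was also the dimmest array and the lowest one for citrate synthase and the isocitrate dehydrogenase beta subunit. With array brightness as a covariate the citrate synthase change was -0.32 and that of the beta subunit -0.38.

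**Figure D3:**
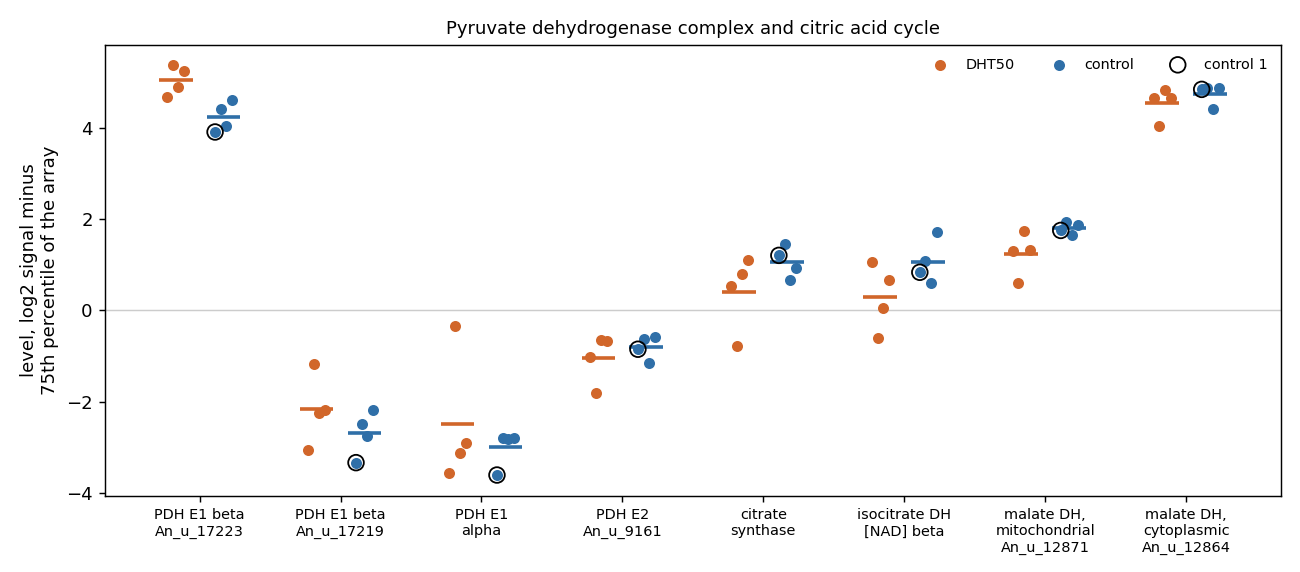
Level of 8 probes of the pyruvate dehydrogenase complex and the citric acid cycle (log2 signal minus the 75th percentile of the array) on the 4 DHT50 and 4 control arrays, with bars at the group means and a ring on control 1. On E1 beta (An_u_17223) all DHT50 arrays lie above all controls, and on the other 7 probes the groups overlap.

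The enzymes of other pathways that share a term had 10 tested probes, 6 lower and 4 higher in DHT50. Sphingosine-1-phosphate lyase, which breaks down a signalling lipid and splits its substrate in the manner of an aldolase, was the only one of them at an unadjusted p under 0.05. It stood at -2.90, -2.30, -3.22 and -2.88 in DHT50, against -4.78, -3.82, -3.97 and -2.99 in controls. DHT50 1, 2 and 4 lay above all controls and DHT50 3 below control 4 (1.06 ± 0.42, 2.09-fold, adjusted p = 0.685). Without control 1 the change was 0.76.

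Glucose-6-phosphatase, the enzyme of liver and kidney that releases free glucose, had 2 probes on 1 target, called a and b here. Probe a stood at -5.97, -2.79, -4.44 and -4.51 in DHT50, against 0.89, -3.30, -4.95 and -3.10 in controls. Control 1 stood 4.68 above the mean of the other controls, and the change of -1.81 ± 1.13 became -0.65 without it. Probe b stood at -0.36, -0.19, -0.87 and -0.62 in DHT50, against 0.12, 0.11, 1.14 and -1.51 in controls (-0.48 ± 0.52), and control 1 was not apart.

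Tyrosine aminotransferase, which breaks down tyrosine in liver, stood at -1.03, 1.88, 0.35 and -0.46 in DHT50, against -0.41, -0.56, -0.85 and -0.87 in controls (0.86 ± 0.57). DHT50 2 and 3 lay above all controls and DHT50 1 below them, and control 1 was close to the other controls. The putative deoxyribose-phosphate aldolase stood at -0.36, -3.52, -2.44 and -2.79 in DHT50, against -0.48, -1.90, -1.11 and -1.25 in controls (-1.09 ± 0.64), with 3 DHT50 arrays below all controls. With array brightness as a covariate, the change was 0.17 for the aminotransferase and -0.14 for this aldolase. Transaldolase and glucose-6-phosphate dehydrogenase of the pentose phosphate pathway had -0.05 and -0.29.

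Control 1 carried several of the enzymes' widest differences. It stood more than 2 above the mean of the other controls on 10 of the 83 probes (12.0%), beside 5.41% of all tested probes, and it was the highest of the 8 arrays on 25 of 83 (30.1%), beside 11.1%. The 10 were the 3 aldolase B probes, 1 of aldolase A, beta enolase, the GAPDH probes AN_v_10867 and An_u_10831, pyruvate kinase R/L, 1 probe of muscle pyruvate kinase and glucose-6-phosphatase probe a. The liver and plasma markers had a median deviation from each probe's mean of 3.79 in control 1. In DHT50 2 it was 1.04, and in the other 6 arrays it lay between -1.62 and 0.41. DHT50 2, the dimmest array, was also the highest array in the median deviation of skeletal muscle (0.80) and red blood cell markers (0.91). It was not the highest for germ cell (0.10) and somatic testis cell markers (0.13). Its 1.04 was thus not particular to the liver and plasma markers. In DHT50 2, the second highest in these markers, the aldolase B probes were among the 2 lowest DHT50 values. Pyruvate kinase R/L and both glucose-6-phosphatase probes had their highest DHT50 value there. The part of liver RNA in these results was not tested.

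**Figure D4:**
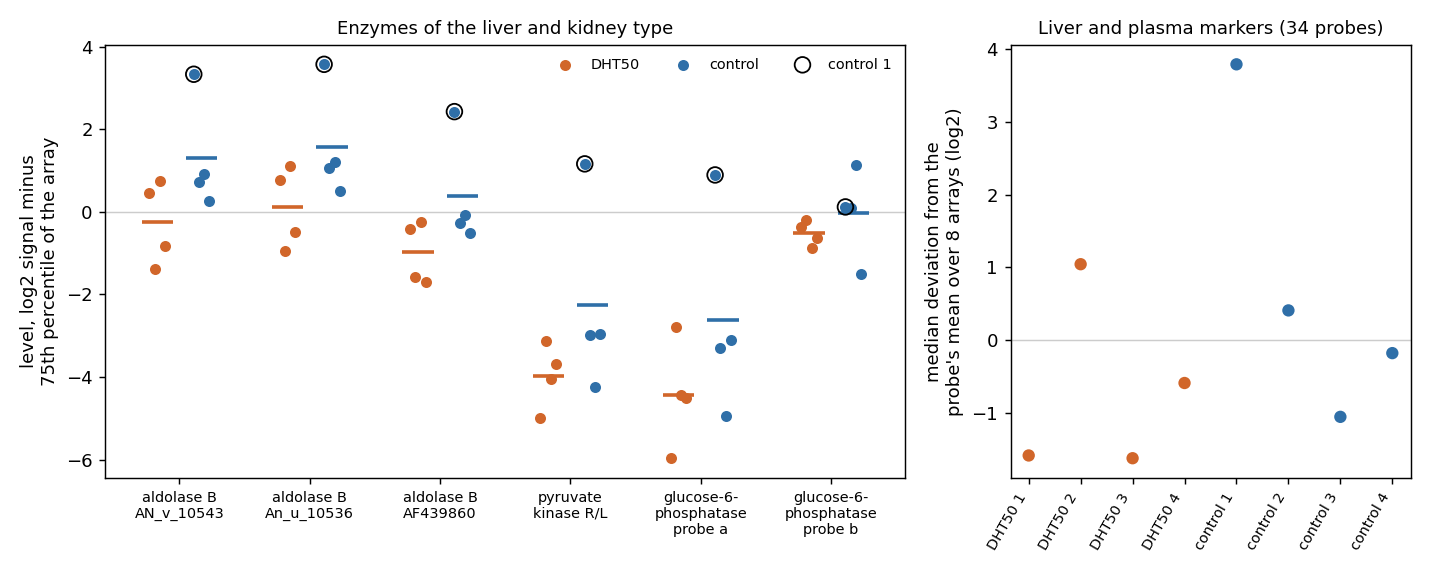
Left, level of 3 aldolase B probes, pyruvate kinase R/L and glucose-6-phosphatase (log2 signal minus the 75th percentile of the array) on the 4 DHT50 and 4 control arrays, with bars at the group means and a ring on control 1. Right, median deviation of 34 liver and plasma marker probes from their own mean, in log2, by array; control 1 lies at 3.79 and every other array at 1.04 or below.

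**Figure D5:**
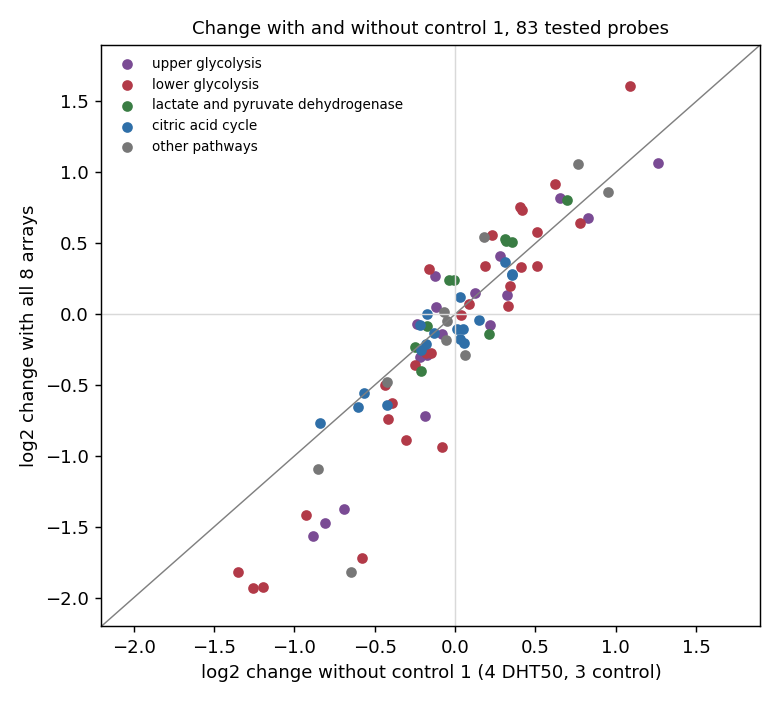
Log2 change, DHT50 minus control, of the 83 tested probes with all 8 arrays (vertical) against that without control 1 (horizontal), coloured by role, with the line of equal values. The probes with the lowest changes lie below the line, such as pyruvate kinase R/L at -1.72 with all arrays and -0.58 without control 1.

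Without control 1, 6 of the 83 probes were at an unadjusted p under 0.05, against 2.59% of all tested probes, and 0 were called. Of the 7 probes past that threshold with all arrays, the 4 GAPDH probes and phosphoglycerate mutase 2 remained past it, while E1 beta and sphingosine-1-phosphate lyase did not. Glucose-6-phosphate isomerase AN_v_10718 came past it, at 0.82 ± 0.35, with all DHT50 arrays above controls 2 to 4. The adjusted p was then 0.942 for each of these 8 probes. Without control 1, all controls left lie in the second slide row and most DHT50 arrays in the first. Slide row and exposure cannot be fully told apart in that comparison.

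Pathways that feed or drain glycolysis were examined through lists of product names. The list of gluconeogenesis, which makes glucose from pyruvate, and of pyruvate entry had 8 tested probes, 6 lower and 2 higher in DHT50. Of these, 0 of 8 were at an unadjusted p under 0.05, and NADP-dependent malic enzyme (0.39) was among the higher ones. The 5 fructose-1,6-bisphosphatase probes of the list had changes of -1.83 to 0.41, and -0.77 to -0.10 without control 1. The summed level of the list was 1.56 to 3.11 on DHT50 arrays and 1.84 to 9.78 on control arrays, with control 1 at 9.78. Glycogen metabolism had 8 tested probes, 4 lower and 4 higher. One of them was at an unadjusted p under 0.05: UTP--glucose-1-phosphate uridylyltransferase 2, which makes the UDP-glucose used for glycogen.

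The uridylyltransferase stood at 0.84, 0.36, 0.87 and 1.30 in DHT50, against 2.47, 1.58, 1.79 and 1.17 in controls, and only DHT50 4 overlapped with the controls (-0.91 ± 0.37, adjusted p = 0.685). The muscle form of glycogen phosphorylase, which frees glucose 1-phosphate, had 1.01 ± 0.51 on AN_v_10885. The pentose phosphate pathway had 6 tested probes, 3 lower and 3 higher, with transketolase at -0.57 ± 0.36. Both probes for succinate dehydrogenase, the cycle enzyme that the name terms leave out, were lower, at -0.48 and -0.22. Creatine and adenylate kinases, which buffer ATP, had 14 tested probes, 6 lower and 8 higher, and the testis isozyme of creatine kinase had 0.66 ± 0.47. Of these pathways' probes, 0 passed the test.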

How the data were processed

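Testis RNA of 4 DHT50 and 4 control males was measured on 8 single-colour Agilent arrays; the titles give group and replicate, and the labels speak of individuals as biological replicates. Per the file headers, Feature Extraction 10.7.1.1 made the deposited processed intensity, subtracting background and detrending within an array. Median spot and local background intensity, also deposited, served an alternative, and the deposited flags for outliers, saturation and signal well above background were used as given. Of 114512 readings, 28 flagged as outliers were dropped, and 0 spots were saturated.

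A second file that the authors deposited holds log2 values and served as another alternative. Every array has a median of 7.47 in it and the same sorted values, and it correlates with the log2 scanner signal at 0.995 to 1.00, so scale and direction are settled, while what tool made it was not given in the sources used here.

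Each array's log2 processed signal was centred on the 75th percentile of its 14314 spots that are not controls, and the values of both spots for each probe were then averaged. A probe counted as well above background on an array when both spots were. DHT50 was compared with control with limma 3.58.1 under R 4.3.3 (two-sided lmFit and eBayes fit, no covariates) over the 5989 tested probes, with Benjamini-Hochberg adjustment, and the fit was tested on simulated data. Gene names are those of the array design, many taken from other species and cut here at the first bracketed synonym, and genome positions are not used here. Precision is limited by the number of arrays.

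The enzymes, gene lists and alternatives were chosen with earlier results of these data known, and names of other proteins caught by the marker lists' terms were removed after the names were seen. The marker lists covered liver and plasma, skeletal muscle, red blood cells, germ cells and somatic testis cells. Values on each array are given by rule for all GAPDH probes, for probes at an unadjusted p under 0.05 or with groups that did not overlap, and for the brightest probe of up to 3 names per role; others were chosen after their values were seen. Alternatives changed background correction, normalization, the filter on dim probes, array weights, blocks, a brightness covariate and the arrays used.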

Additional observations from a re-analysis of the deposited data

Results flagged for a closer look

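Within the 4 arrays of a group, 1 array lay far from the other 3 by Dixon's 95% criterion for 8 (4.82%) of the pairs formed by 83 probes and 2 groups. Chance alone gives about 1 in 20. Control 1 was the distant array in 5 of them: aldolase B AF439860 at 2.43 (nearest control -0.07), lactate dehydrogenase B AN_v_12709 at 1.55 (0.29), glucose-6-phosphate isomerase AN_v_10719 at -0.82 (-1.52), muscle pyruvate kinase AN_v_17236 at -4.34 (-3.23) and pyruvate dehydrogenase E1 alpha at -3.61 (-2.81). It was the highest control in the first 3 and the lowest in the last 2. Cytoplasmic malate dehydrogenase An_u_12864 lay at 4.4 in control 3 (nearest 4.84). Among DHT50 arrays, mitochondrial malate dehydrogenase An_u_12870 lay at 1.82 in DHT50 2 (2.29), and phosphoglycerate kinase An_u_15429 at 2.28 in DHT50 1 (1.04).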

How the results depend on the processing

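No probe was called except in the first slide row alone (1 control, assumed to vary like DHT50): 106 probes, 2 of them enzymes, GAPDH An_u_10831 at -4.3 and pyruvate kinase R/L. The count at an unadjusted p under 0.05 (282 of all, 7 of enzymes) was 81 for all with normexp, 1279 and 14 with array weights, 426 and 14 in that row, and 160 and 4 without control 1 and DHT50 2. For enzymes it was 13 with slide row as a block (15.7%, beside 6.56% of all) and 2 with brightness as a covariate (2.41%, beside 3.32%). With normexp it was 6 for enzymes (7.23%, beside 1.35%). Leaving out 1 array gave 137 (without DHT50 3) to 1389 (without DHT50 1) of all, with 155 without control 1 and 168 without control 2. For enzymes it gave 4 without DHT50 2 (4.82%, beside 3.26% of all) to 15 without DHT50 1 (18.1%, beside 23.2%). Without control 4 it gave 11 (13.3%, beside 3.74%). Equal replicate numbers were not taken as pairs, since 1 of 4 correlations of deviations was negative (0.20, 0.16, 0.38 and -0.11). In 3 of 4 numbers the samples correlated best with their own number, a hint from the data and not the design. The replicate block gave 597 for all and 12 for enzymes (14.5%, beside 9.97% of all), with 0 called.

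The median change of -0.08 was 0.013 with array weights and -0.14 to 0.015 leaving out 1 array; that of product names was -0.23 in the first row. Of the 37 probes that changed by more than their SE, 30 kept their direction with brightness as a covariate, 32 in the second row, 34 without control 1 and DHT50 2, 36 in the first row and 37 in the other settings with all of them tested. Among those other settings, dropping the filter or adding the replicate block leaves each change as it is and cannot turn a sign. Leaving out 1 array can hardly turn a change larger than its SE. Of all 83 probes, 49 kept it with brightness, 63 in the second row and 55 without control 1 and DHT50 2. Probes with values given for each array that turned sign, some of them with changes larger than their SE, are named here, and the cause was not tested. In the second row these were GAPDH AN_v_10866 at 1.58, isomerase AN_v_10719 at -0.29, enolase at 0.094, E2 at 0.12, E1 alpha at -0.11, citrate synthase at 0.084 and malate dehydrogenase An_u_12870 at 0.17. With brightness they were GAPDH AN_v_10847 at 0.18 and AN_v_10868 at -0.27, isomerase An_u_10717 at 0.011, E1 alpha at -0.38 and An_u_12870 at 0.074. Without control 1 and DHT50 2 they were AN_v_10847 at 0.0062, AN_v_10868 at -0.012, lactate dehydrogenase B at 0.041, E2 at 0.0098, E1 alpha at -0.39 and An_u_12870 at 0.14. With array weights they were enolase at 0.028, E2 at 0.014, E1 alpha at -0.0090 and An_u_12870 at 0.066. GAPDH AN_v_10865 was -0.32 with row as a block and -0.66 in the first row. Enolase was 0.092 with normexp, 0.055 with quantile normalization and 0.0087 in the deposited table. Leaving out 1 array gave AN_v_10865 -0.11 to 0.33, AN_v_10868 -0.091 to 0.78, An_u_10717 -0.33 to 0.042, enolase -0.11 to 0.10, E2 -0.36 to 0.026, E1 alpha -0.19 to 0.88 and An_u_12870 -0.21 to 0.026.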

Other observations

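The markers of other cells of the testis were measured on the same arrays. Of 5 tested germ cell and sperm probes, 2 were lower and 3 higher in DHT50, and their summed level was 11 to 25 on DHT50 arrays and 15.1 to 21.2 on control arrays. DEAD-box protein 4, a marker of germ cells, stood at -0.02, -2.08, -2.37 and -1.59 in DHT50, against 0.03, -0.82, -1.17 and -0.24 in controls. DHT50 2, 3 and 4, which were also the dimmest arrays, lay below all controls, and the change of -0.96 ± 0.54 did not pass the test. The median change over the 5 germ cell and sperm probes was 0.16, so this probe does not stand for the list. Of 8 somatic testis cell probes, 3 were lower and 5 higher, with a summed level of 0.713 to 2.14 on DHT50 arrays and 1.34 to 1.75 on control arrays. Of 16 tested red blood cell probes, 5 were lower and 11 higher, with a summed level of 82.8 to 148.4 on DHT50 arrays and 105.1 to 143.3 on control arrays.

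Probes on 1 target sequence did not always give 1 value. Among 5 targets of the enzymes with 2 tested probes, the changes differed by 0.0823 to 0.183 for phosphoglycerate mutase 1, pyruvate kinase M1/M2 and muscle pyruvate kinase AN_v_17236. They differed by 1.13 for aldolase A An_u_10475 and by 1.34 for glucose-6-phosphatase. Without control 1 those 2 pairs had changes of -0.19 and 0.28, and of -0.42 and -0.65.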
